A study of Rattus norvegicus with 8 samples.

Results

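The enzymes of phase I metabolism in the colon mucosa of the rat were examined after 11 weeks of feeding. One group had quercetin in its feed, at 10 g per kg, and the other had the control feed, the rat breeder diet RM3 [E] FG SQC. Quercetin is a plant flavonol. Total RNA from scrapings of the distal colon mucosa was hybridised to Affymetrix expression arrays, with 4 arrays for each of the 2 diets. The labels name no strain, sex or age. They number the samples but do not tie each one to its own animal, and a p-value here therefore covers the spread between 8 samples, some of which could be technical. Genes were chosen by name. A gene was a member if its symbol begins with Cyp2, Cyp3 or Cyp4, or with Fmo, Ces, Adh, Aldh or Akr followed by a digit, without the sterol, retinoid and vitamin D hydroxylases of the prefixes Cyp26, Cyp27, Cyp39 and Cyp46, or if it was 1 of 9 single genes (Por, Maoa, Maob, Cbr1, Cbr3, Ephx1, Ephx2, Xdh and Aox1). Of 14217 genes with a probe set naming 1 symbol, 96 were members, each read from its brightest probe set over the 8 arrays. Of these, 61 passed the filter on dim signals and were tested, and 35 did not. Read by its letters, the rule also takes in Cyp20a1 and Cyp21a1, which are not of the CYP2 family.

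Phase I enzymes add or uncover a reactive group on drugs, plant compounds, steroids and lipids, so that conjugating enzymes can act on it. Cytochromes P450 (CYP) and flavin monooxygenases (FMO) insert oxygen, carboxylesterases (CES) and epoxide hydrolases split bonds with water, alcohol and aldehyde dehydrogenases (ADH, ALDH) oxidise, and aldo-keto reductases (AKR) and carbonyl reductases reduce. The liver is the main site of most of them, but the lining of the gut holds its own set, facing the diet and the products of gut bacteria. The nuclear receptors PXR, CAR and PPAR alpha and the transcription factor NRF2 are known regulators of many of these genes.

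The arrays were checked first. Pairwise correlations over the tested probe sets lay between 0.914 and 0.966, with the lowest mean, 0.927, for control array 2. The GAPDH 3' to 5' signal ratio, which is higher where RNA is shortened, was 3.79 on that array, against 1.58 to 2.36 on the others. The beta-actin 3' to 5' ratio was 8.65, 21.4, 10.2 and 12.4 on control arrays 1 to 4. On quercetin arrays 1 to 4 it was 7.18, 8.90, 9.12 and 6.79. In this ratio control arrays 2, 3 and 4 lay above every quercetin array. The actin ratio entered no fit, and its part in the members' values was not tested. All 13 absorptive colonocyte markers and all 7 goblet cell markers passed the filter. Of 8 smooth muscle markers 4 did, of 8 leukocyte markers on the array 2, and of 6 liver markers 1, with albumin, the most abundant liver protein, under the filter. The summed signal of the colonocyte markers was 126289 to 153287 on control arrays and 131194 to 146066 on quercetin arrays, and the ranges overlapped for the other marker lists as well. In bulk RNA, fewer cells of a type and less RNA per cell cannot be told apart. Signals of different probe sets are not on a common scale, so levels are compared only between arrays.

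No phase I gene passed the threshold, yet most of those tested had a higher mean in quercetin. Of 61 members 43 (70.5%) had a log2 fold change above 0, where 55.9% of the 10266 genes and 51.3% of the probe sets tested did, and the median over the members was 0.19, against 0.04 over all genes and 0.01 over all probe sets. The changes lay between -0.49 and 0.75 on the log2(signal + 16) scale. After Benjamini-Hochberg adjustment over all 18625 probe sets, limma called 0 of 61 members (smallest adjusted p = 0.34), beside 2 probe sets, or 0.0107%, over the whole table. At an unadjusted p under 0.05 there were 11 members, 18% of those tested, against 10.8% of all probe sets and 9.39% of genes. Of the 11, 10 were higher in quercetin (5.04% of probe sets and 6.06% of genes) and 1 was lower (5.71% and 3.33%). In 0 of 61 members did the 4 quercetin arrays lie wholly above or below the 4 control arrays, a separation seen in 6.39% of probe sets and 5.84% of genes. In 11 members (18%) 3 of the 4 quercetin arrays lay above every control array, against 7.41% of all genes, and in 2 members (3.28%) 3 lay below, against 5.44%.

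**Figure D1:**
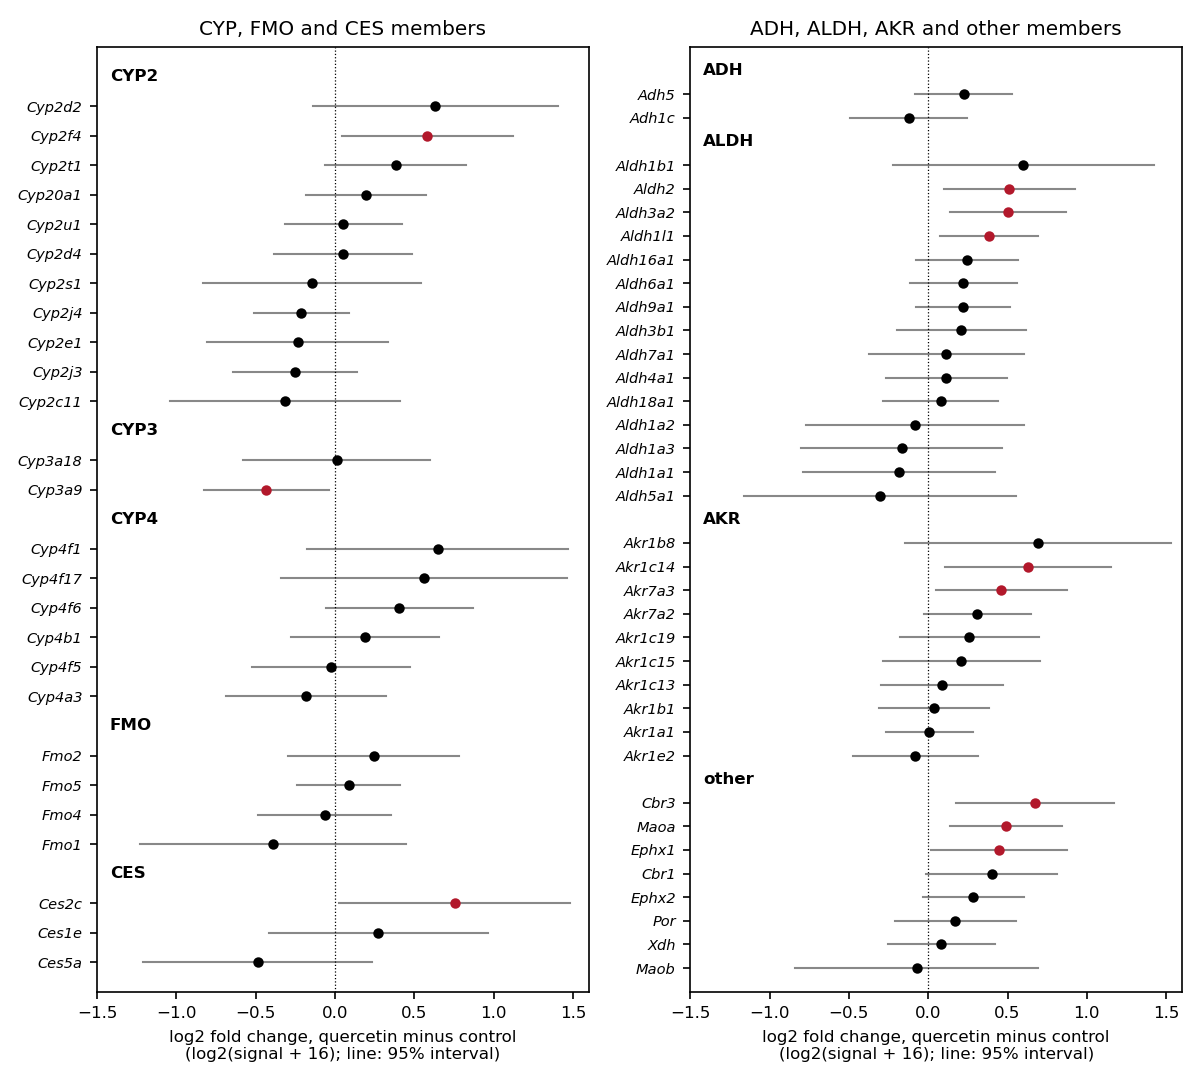
Log2 fold change (quercetin minus control, on the log2(signal + 16) scale) of the 61 members tested, by enzyme group, with limma's 95% interval as a line; points in red have an unadjusted p under 0.05. The values run from -0.49 for Ces5a to 0.75 for Ces2c, and 11 intervals leave out 0.

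**Figure D2:**
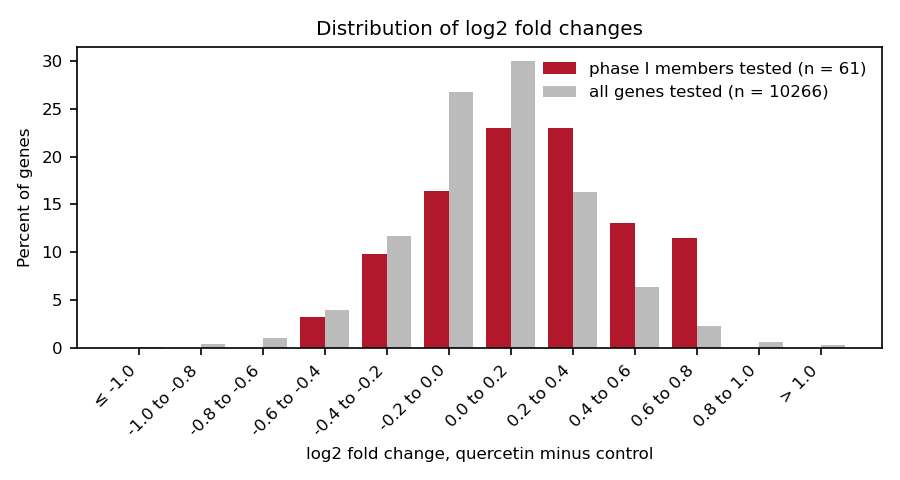
Percent of the 61 members tested and of all 10266 genes tested, in steps of log2 fold change (quercetin minus control). Between 0.4 and 0.6 lie 13.1% of members and 6.41% of genes, and between 0.6 and 0.8 lie 11.5% and 2.31%.

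The 11 members came from 6 of the 9 enzyme groups. Cytochromes P450 gave 19 of the 61 members tested, 11 higher and 8 lower, with a median log2 fold change of 0.05 and 2 genes at an unadjusted p under 0.05. The other enzymes gave 42 members, 32 higher and 10 lower, with a median of 0.21 and 9 genes at that level. Over all genes tested, 55.9% had a log2 fold change above 0 and 9.39% an unadjusted p under 0.05. The difference between the P450s and the other enzymes was not tested.

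Among the P450s of the CYP2 prefix, 11 of 27 members were tested, with 6 higher, 5 lower and a median log2 fold change of 0.05. Cyp2f4, known from the lung for oxidising naphthalene, had signals of 53.2, 70.1, 42.6 and 35.2 on control arrays 1 to 4 and 64.02, 74.0, 81.8 and 112 on quercetin arrays 1 to 4. Quercetin array 1 lay within the control range and the others above it. The log2 fold change was 0.58 (SE 0.25, unadjusted p = 0.0363, adjusted p = 0.43 in limma). Cyp2j4 and Cyp2j3, of a subfamily that turns arachidonic acid into epoxides, had values of -0.21 (SE 0.139) and -0.25 (SE 0.18), with adjusted p-values of 0.621 and 0.651. Cyp2j4 had 1397, 1047, 1082 and 1114 in control and 858, 1109, 1041 and 977 in quercetin, so that 3 of the 4 quercetin arrays were below the lowest control array. Without control array 1 the values were -0.12 for both Cyp2j4 and Cyp2j3. A second probe set of Cyp2j3 had -0.16. Cyp2d2, a drug-oxidising P450, had the largest value of this group, 0.63 (SE 0.358, adjusted p = 0.562), but it rested on control array 1, which had a signal of 15.9 against 79.4 to 81.2 on the other control arrays; without it the value was 0.23.

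The 16 CYP2 members not tested had mean signals of 1.90 to 28.8 and include most of the CYP2A, CYP2B and CYP2C enzymes that are typical of liver, among them Cyp2c12 and Cyp2b3. At such signals a dim transcript is hard to tell from background, and a small change in these members could have been missed here.

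In the CYP3 group, whose enzymes oxidise many drugs and steroids, 2 of 4 members were tested. Cyp3a9 was the 1 phase I member of the 11 with a lower mean in quercetin. It had signals of 6774, 4765, 3747 and 5628 on the control arrays and 3432, 3163, 4577 and 4118 on the quercetin arrays. Quercetin arrays 1 and 2 lay below every control array, and 3 and 4 lay within the control range. The means were 5228 ± 1285 (SD, n = 4) and 3822 ± 644 (SD, n = 4), and the log2 fold change was -0.43 (SE 0.181, 95% interval -0.82 to -0.04, adjusted p = 0.422 in limma). Leaving out 1 array at a time gave -0.58 to -0.30. The value of Cyp3a18 was 0.01 (SE 0.274, interval -0.58 to 0.60). Cyp3a2 and Cyp3a23-3a1 were not tested, with mean signals of 7.47 and 19.3.

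CYP4 enzymes hydroxylate the far end of fatty acids and of eicosanoids such as leukotrienes. Of 10 members 6 were tested, 4 higher and 2 lower, with a median of 0.30 and none at an unadjusted p under 0.05 (smallest unadjusted p = 0.0803, adjusted p = 0.527 in limma). Cyp4f1 had signals of 682, 1932, 1986 and 699 in control and 2249.5, 2857, 999.8 and 1765 in quercetin. Both groups spread widely, with control arrays 1 and 4 and quercetin array 3 low. Its log2 fold change was 0.65 (SE 0.381, adjusted p = 0.581), with 0.40 without control array 1 and 0.94 without quercetin array 3. Cyp4f5, of the same gene cluster, had -0.02 (SE 0.232, interval -0.53 to 0.48), and its sign turned under 4 alternatives. Of the CYP4A enzymes, the textbook targets of PPAR alpha, only Cyp4a3 was tested, at -0.18 (SE 0.233), while Cyp4a1 and Cyp4a8 had mean signals of 18.0 and 29.5. Of the 7 members on the array that were listed as PPAR alpha targets, 4 were tested, 3 higher and 1 lower.

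The flavin monooxygenases, which oxidise nitrogen and sulphur atoms of drugs and amines, had 4 of 4 members tested, 2 higher and 2 lower, with a median of 0.01. Fmo5 had 276, 344, 296 and 282 in control and 354, 279, 294 and 352 in quercetin, with a log2 fold change of 0.09 (SE 0.150, interval -0.24 to 0.41, adjusted p = 0.877). Fmo2 had 0.25 (SE 0.249), with -0.13 on both of its other probe sets, and Fmo1 -0.39 (SE 0.387), with a signal of 4.35 on quercetin array 1 against 29.3 to 55.6 on the other quercetin arrays. Without quercetin array 1 the value of Fmo1 was -0.029, and without control array 3 that of Fmo2 was 0.021.

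Carboxylesterases split esters and amides of drugs and lipids, and those of the CES2 kind are typical of the gut. Of 5 members 3 were tested. Ces2c had signals of 103, 160.5, 216 and 78.3 in control and 212, 456, 141 and 204 in quercetin. Quercetin array 2 was alone above the control range. The means were 139 ± 61.8 (SD, n = 4) and 253 ± 139 (SD, n = 4), and the log2 fold change, 0.75 (SE 0.336, adjusted p = 0.445), became 0.44 without quercetin array 2. Ces1e had 0.27 (SE 0.319), with control array 1 at 81.3 and the other control arrays at 229 to 310.3, and its value was -0.11 without that array. Ces5a, named here after its values were seen, was at the low end of all members, -0.49 (SE 0.334), with a highest signal of 54.0.

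Of the alcohol dehydrogenases 2 of 5 members were tested. Adh1c, the classical ethanol-oxidising enzyme, had signals of 9718, 17793, 13459 and 13516 in control and 14226, 11036, 12634 and 11284 in quercetin. All quercetin arrays lay inside the control range, and the log2 fold change was -0.12 (SE 0.17, interval -0.49 to 0.25, adjusted p = 0.84). Its other probe set had -0.11. Adh5, which clears formaldehyde bound to glutathione, had 2534 ± 349 (SD, n = 4) in control and 2965 ± 419.8 (SD, n = 4) in quercetin, a log2 fold change of 0.23 (SE 0.142, interval -0.08 to 0.53, adjusted p = 0.608).

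Aldehyde dehydrogenases, which turn reactive aldehydes from alcohol, lipids and amino acids into acids, were the group with the most members tested, 15 of 17. Of these 11 were higher and 4 lower, with a median of 0.21, and 3 had an unadjusted p under 0.05, all higher. Over all genes tested, 6.06% were higher at that level. Aldh3a2, the fatty aldehyde dehydrogenase, had signals of 1106, 772, 1129 and 807 in control and 1369, 1125, 1239 and 1672 in quercetin. Quercetin array 2 fell just below control array 3, and the others lay above all control arrays. Its log2 fold change was 0.50 (SE 0.169, unadjusted p = 0.011, adjusted p = 0.34), a level 1.42 times that of control on this scale, and it kept an unadjusted p under 0.05 under all 20 alternatives, with values of 0.40 to 0.59 and adjusted p-values of 0.188 to 0.613.

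Aldh2, the mitochondrial enzyme for acetaldehyde, had 1081, 1586, 1466 and 1401 in control and 1882, 2794, 1413 and 1985 in quercetin. Quercetin array 3 lay among the controls. The log2 fold change was 0.51 (SE 0.192, adjusted p = 0.369), and 0.34 without quercetin array 2. Aldh1l1, an enzyme of the folate cycle, had 431, 424, 519 and 474 in control and 502, 665, 605 and 668 in quercetin, with only quercetin array 1 below the highest control array, control array 3. Its value was 0.38 (SE 0.144, adjusted p = 0.367).

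The values of Aldh9a1, which acts on aldehydes of amines and in carnitine synthesis, and Aldh1b1, another mitochondrial enzyme, were 0.22 (SE 0.137) and 0.60 (SE 0.382). Aldh1b1 had a signal of 25.5 on control array 1 and 69.5 to 131 on the other control arrays, and the value was 0.25 without control array 1. Aldh1l2 and Aldh3a1 were not tested.

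Of 15 aldo-keto reductases 10 were tested, 9 higher and 1 lower, with a median of 0.23. Akr7a3, which reduces the dialdehyde of aflatoxin, had signals of 1198, 786, 1223 and 1146 in control and 1789.9, 1794, 1075 and 1396 in quercetin. Quercetin arrays 1, 2 and 4 lay above all controls and quercetin array 3 below 3 of them. The log2 fold change was 0.46 (SE 0.191, unadjusted p = 0.031, adjusted p = 0.412), and 0.31 without control array 2. Akr1c14, a hydroxysteroid dehydrogenase, had 176, 266, 300.4 and 154 in control and 409, 459.9, 241 and 304 in quercetin, where again quercetin array 3 lay within the control range. Its log2 fold change was 0.63 (SE 0.242, adjusted p = 0.379), and its 2 other probe sets had 0.72 (SE 0.324) and 0.79 (SE 0.221, unadjusted p = 0.00337).

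Akr1b8, a reductase of lipid aldehydes that is close to human AKR1B10, split the quercetin group. Its signals were 636, 800.2, 937 and 752 on the control arrays, 2812 and 2008 on quercetin arrays 1 and 2, and 648 and 684 on quercetin arrays 3 and 4. Quercetin arrays 3 and 4 lay inside the control range. The log2 fold change of 0.69 (SE 0.387, interval -0.14 to 1.53, adjusted p = 0.557) became 0.31 without quercetin array 1 and 1.01 without quercetin array 3. Akr1c13 and Akr1a1, the general aldehyde reductase, had values near 0, at 0.09 (SE 0.179) and 0.01 (SE 0.128, interval -0.27 to 0.28).

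Among the 9 single genes 8 were tested, 7 higher and 1 lower, with a median of 0.34. Maoa, the outer mitochondrial membrane enzyme that oxidises serotonin and dietary amines, had the smallest unadjusted p of all members. Its signals were 1347, 1157, 1459.6 and 1282 in control and 2256, 2216, 1422 and 1607 in quercetin, with quercetin array 3 inside the control range. The means were 1312 ± 126 (SD, n = 4) and 1875 ± 424 (SD, n = 4), and the log2 fold change was 0.49 (SE 0.163, 95% interval 0.13 to 0.84, unadjusted p = 0.0106, adjusted p = 0.34). The suffix of its probe set, _s_at, marks probes shared by more than one transcript of the array's design. Maob, its neighbour on the X chromosome, had -0.07 (SE 0.355) and a mean signal of 35.1 in control.

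Cbr1 and Cbr3, neighbouring genes for carbonyl reductases that act on quinones and drug ketones, were both higher. Cbr3 had signals of 192, 109, 261 and 205 in control and 362, 246, 332 and 284 in quercetin, with quercetin array 2 below control array 3. The log2 fold change was 0.67 (SE 0.23, unadjusted p = 0.0117, adjusted p = 0.342), and 0.45 without control array 2. Cbr1 had 1197, 1194, 1556 and 1051 in control and 2372, 1722, 1286 and 1363 in quercetin, where quercetin arrays 1 and 2 were above all controls and 3 and 4 were not. Its value was 0.40 (SE 0.191, adjusted p = 0.482), and 0.22 without quercetin array 1.

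Ephx1, the microsomal epoxide hydrolase, had 176, 201, 307 and 204 in control and 342, 370.1, 242 and 269 in quercetin. Quercetin arrays 1 and 2 lay above all controls, and 3 and 4 below control array 3. The log2 fold change was 0.45 (SE 0.198, unadjusted p = 0.0424, adjusted p = 0.444). Ephx2, the soluble epoxide hydrolase, had 0.28 (SE 0.148), Por, the reductase that passes electrons to every microsomal P450, 0.17 (SE 0.177), and Xdh, which makes uric acid, 0.08 (SE 0.157). Aox1 was not tested, with a mean signal of 18.1.

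**Figure D3:**
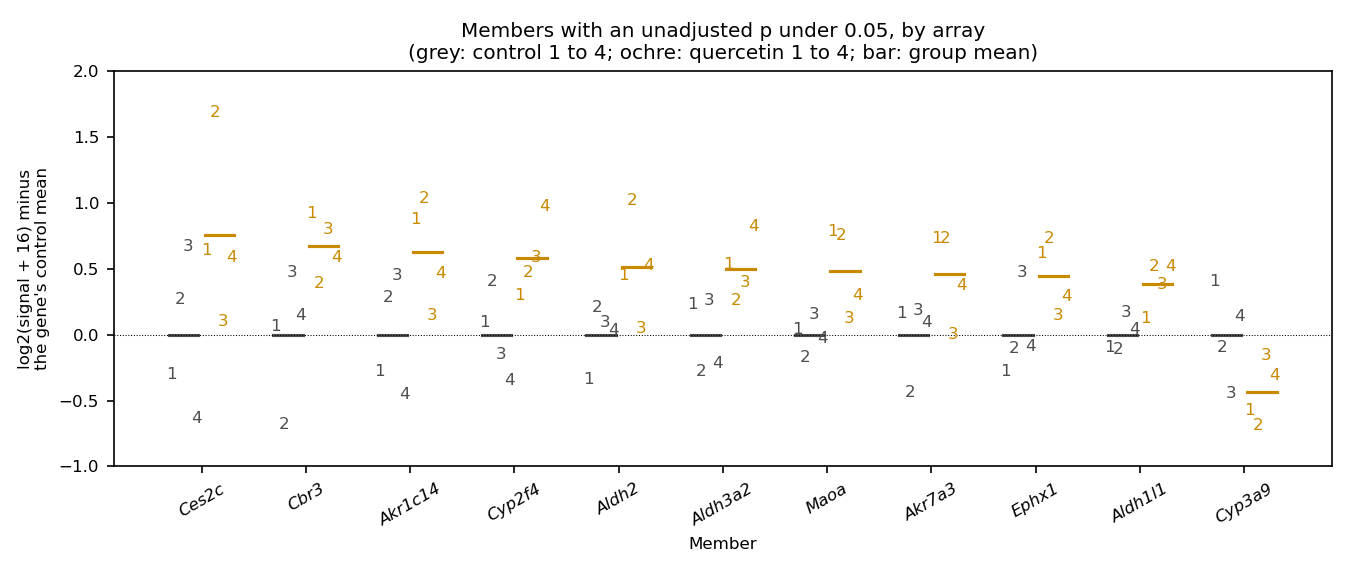
Log2(signal + 16) minus the gene's control mean for the 11 members with an unadjusted p under 0.05; each digit is 1 array (grey, control 1 to 4; ochre, quercetin 1 to 4) and bars are group means. For each gene at least 1 quercetin array lies within the control range, and quercetin array 3 is the lowest quercetin array for 6 of the 10 higher genes.

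A list of textbook NRF2 targets cut across these groups: 9 of its 12 members were tested, and all 9 had values above 0, from 0.01 for Akr1a1 to 0.69 for Akr1b8, with a median of 0.40. Over all genes tested, 55.9% had a value above 0 and 9.39% an unadjusted p under 0.05. Of the 9 listed members tested, 3 had an unadjusted p under 0.05 and 0 passed after adjustment. The list was written with earlier results of these data known, so this count supports no direction. The value of Akr1a1 turned below 0 under 5 alternatives. Nfe2l2, which encodes NRF2, had a log2 fold change of -0.13 (SE 0.155, adjusted p = 0.815).

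Promoter sequences from RefSeq (GRCr8), 250 bases before to 50 after each gene's start, were found for 81 of the 96 members. The core of the electrophile response element that NRF2 binds, TGACNNNGC on either strand, was in 7 of 56 promoters of members tested (12.5%), against 8.54% of the 82 promoters of all members and 12.1% of all 33469 promoters. Matches of different motifs could overlap. Of the 10 members higher at an unadjusted p under 0.05, 9 had a promoter in the table, and 1 of these, Ephx1, had a match, TGACTCAGC from position -57 on the opposite strand. It lay in the window of the downstream of its 2 listed starts. Akr1c15, an aldo-keto reductase with a log2 fold change of 0.21 (SE 0.228), had 2 matches, from -140 and -69. Cbr3, the NRF2-list member with the smallest p, had none. These promoters are shown with the core in capitals, to set the member with a match, the one with most matches and the one without beside each other. Windows are Ephx1 chr13:95263068-95263367 (minus strand), Akr1c15 chr17:71117908-71118207 (minus strand) and Cbr3 chr11:46478045-46478344 (plus strand), each 5′ to 3′ along the gene.
Ephx1: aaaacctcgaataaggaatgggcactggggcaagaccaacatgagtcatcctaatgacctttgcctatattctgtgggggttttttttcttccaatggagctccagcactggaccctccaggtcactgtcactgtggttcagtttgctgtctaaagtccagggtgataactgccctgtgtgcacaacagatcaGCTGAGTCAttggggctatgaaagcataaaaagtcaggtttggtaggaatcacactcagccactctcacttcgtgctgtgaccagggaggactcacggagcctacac
Akr1c15: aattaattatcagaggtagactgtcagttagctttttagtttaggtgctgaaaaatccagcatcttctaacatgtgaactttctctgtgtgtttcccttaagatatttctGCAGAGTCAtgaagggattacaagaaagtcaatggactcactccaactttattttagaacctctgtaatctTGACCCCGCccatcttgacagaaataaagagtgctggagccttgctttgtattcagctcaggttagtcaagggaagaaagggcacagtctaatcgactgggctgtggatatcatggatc
Cbr3: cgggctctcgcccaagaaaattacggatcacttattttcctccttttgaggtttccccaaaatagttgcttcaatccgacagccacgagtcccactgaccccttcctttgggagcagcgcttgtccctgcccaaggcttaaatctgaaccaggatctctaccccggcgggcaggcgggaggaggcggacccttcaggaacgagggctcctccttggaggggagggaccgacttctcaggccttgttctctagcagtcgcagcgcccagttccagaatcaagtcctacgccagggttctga
The 7 genes with a match had values of 0.45 (Ephx1), 0.24 (Aldh16a1), 0.22 (Aldh9a1), 0.21 (Akr1c15), 0.19 (Cyp4b1), -0.08 (Aldh1a2) and -0.14 (Cyp2s1). The exact DR1 repeat bound by PPAR alpha with its partner was in 0 of 82 member promoters and 18 of 33469 in all, and GCGTG, the core bound by the Ah receptor, was in 32.1% of the promoters of members tested, 26.8% of those of all members and 29.7% of all. A match is a description of the letters and not a binding site.

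Many members lie in clusters of related genes. In the RefSeq gene order, with at most 5 protein-coding genes between neighbours, there were 16 runs of members, 12 of them with more than 1 member tested. In 5 of the 12 the tested members had 1 sign and in 7 both signs. Akr7a2, Akr7a3 and Aldh4a1 were all above 0 (0.31, 0.46 and 0.11), and Cyp2j4 and Cyp2j3 both below. Members of such clusters can share sequence, and cross-hybridisation between them was not tested.

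Partners of phase I enzymes were listed as well. Of 59 genes listed for electron supply, heme synthesis, regulation and related reductases, 56 were on the array and 49 tested, 34 higher and 15 lower with a median of 0.10. Limma called 0 of 49 after adjustment (smallest adjusted p = 0.285), 6 (12.2%) were higher and 1 (2.04%) lower at an unadjusted p under 0.05, against 6.06% and 3.33% of all genes. In 5 (10.2%) the groups did not overlap, against 5.84% of all genes. Cyb5b, the cytochrome b5 of the outer mitochondrial membrane, had 424, 447, 449 and 459 in control and 581, 681, 568 and 622 in quercetin. All 4 quercetin arrays lay above all controls, with a log2 fold change of 0.45 (SE 0.128, adjusted p = 0.285). With the gene's probe sets averaged the value was 0.25 and the unadjusted p 0.0626 (adjusted p = 0.485 in limma).

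Blvrb, a reductase that acts after heme breakdown, had 0.72 (SE 0.238), and the steroid dehydrogenase Hsd17b2 0.64 (SE 0.211), its quercetin arrays (916 to 1213) above its control arrays (419 to 884). The other dehydrogenase of that name, the mitochondrial Hsd17b10, had 0.44 (SE 0.184). Without control array 2, the array with the highest GAPDH ratio, the values of Hsd17b2 and Hsd17b10 were 0.40 and 0.27. Of the regulators, the bile acid receptor gene Nr1h4 had 612, 577, 766 and 607 in control and 1127, 1004, 670.2 and 989 in quercetin (0.54, SE 0.17, adjusted p = 0.317), with quercetin array 3 inside the control range, and Cebpb had 0.57 (SE 0.234). Hnf4a, a master regulator of gut and liver epithelium, had -0.31 (SE 0.133, adjusted p = 0.434), and its value was 0.12 when its probe sets were averaged.

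The PXR gene Nr1i2 had 0.12 (SE 0.165) and the CAR gene Nr1i3 0.49 (SE 0.363), or 0.18 without control array 3. Ppara, Rxra and Arnt were not tested, nor were Cyp1a1, Cyp1a2 and Cyp1b1, the Ah receptor targets, with mean signals of 3.31 to 21.0 in either group. Among the cell markers, 1 colonocyte gene, the sodium-proton exchanger Slc9a3 (0.72, SE 0.189), and 1 enteroendocrine gene, Chga (0.81, SE 0.281), had an unadjusted p under 0.05. Their part in the values of the members was not tested.

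The members' signals leaned on single arrays. Quercetin array 1 held the highest signal of 20 of the 61 members tested (32.8%), against 15.5% of all genes, and control array 1 the lowest signal of 20 members (32.8%), against 23.1%. Control arrays 3 and 4 held the highest signal of 2 and 1 members. The median deviation of the members from their own mean was 0.21 on quercetin array 1, 0.08 on quercetin array 2 and between -0.01 and 0.01 on quercetin arrays 3 and 4, and it was -0.15 on control arrays 1 and 4, -0.04 on control array 2 and 0.08 on control array 3.

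**Figure D4:**
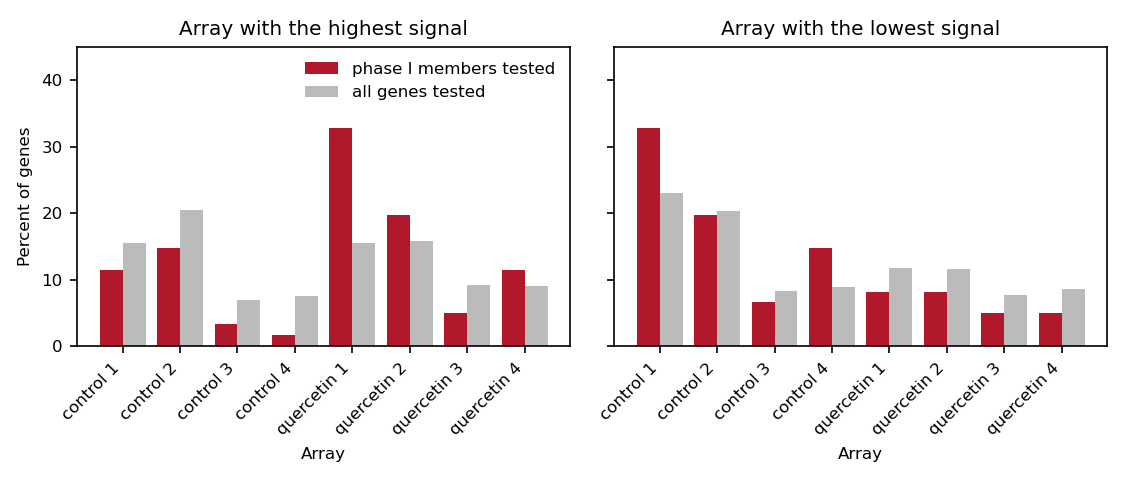
Percent of the 61 members tested, and of all 10266 genes tested, whose highest signal (left) or lowest signal (right) lay on each of the 8 arrays. Quercetin array 1 held the highest signal of 32.8% of members and control array 1 the lowest of 32.8%.

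The count of 11 members at an unadjusted p under 0.05 moved with these arrays. It was 6 without control array 1 and 4 without quercetin array 2. Without control array 4 it was 7 (11.7% of members, against 9.35% of all probe sets). Without quercetin array 1 it was 6 (9.52% against 9.03%), and without control array 3 it was 18 (29.5% against 10.6%). Without control arrays 1 and 2 it was 3 of 59 members, or 5.08%, against 7.46% of all probe sets. The share of members was above that of all probe sets in the fit with all arrays (18% and 10.8%) and below it without control array 1 (9.84% and 11.1%), quercetin array 2 (6.67% and 7.96%) or control arrays 1 and 2. These shares pool both directions, with all probe sets and not 1 per gene as the baseline. In the settings below it every member called was higher in quercetin (6, 4 and 3). The share of all probe sets that were higher is not given for those settings. The count of members whose groups did not overlap was 0 with all arrays and 12 without control array 3 (19.7%, against 10.4% of all probe sets in that setting). It was 5 without quercetin array 3 (7.94% against 11.3%), 3 without quercetin array 1 (4.76% against 10%) or quercetin array 2 (5% against 8.9%), and 0 to 1 without any other single array, where 8.83% to 11% of all probe sets did not overlap. The median log2 fold change of the members stayed above 0 under all alternatives run. It lay between 0.09 without the filter and 0.24 with median centring, where the medians of all probe sets were -0.003 and 0.06. The number of members past the adjusted threshold was 0 in each alternative, with smallest adjusted p-values of 0.188 to 0.594 in limma.

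**Figure D5:**
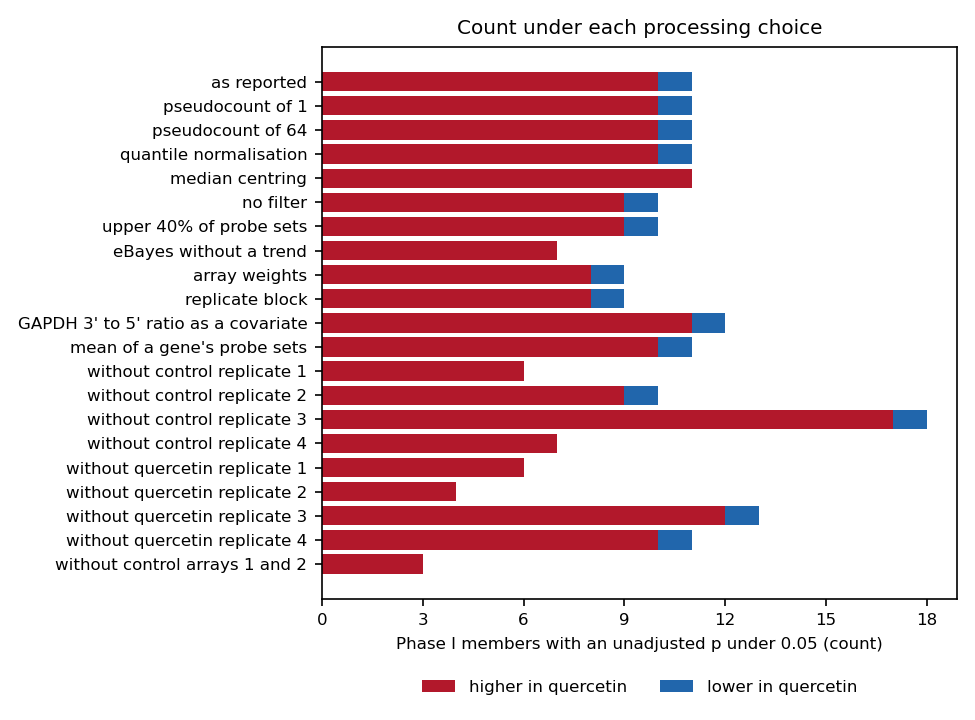
Number of members with an unadjusted p under 0.05, higher (red) and lower (blue) in quercetin, with the settings as reported and under each alternative. The count was 11 as reported (18% of members, against 10.8% of all probe sets). It ran from 3 without control arrays 1 and 2 (5.08% against 7.46%) to 18 without control array 3 (29.5% against 10.6%).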

How the data were processed

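The deposited table holds 1 linear intensity per probe set and array, made by the authors. The submitters' processing notes name MAS5 as the method, which scales every array, here to a mean of 200.1 with 2% trimmed at either end, and dim signals scatter widely on a log scale. Groups came from the sample titles. Members, lists and tests were chosen with earlier results of these data known.

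Of the probe sets, 57 array controls were left out. Signals were taken as log2(signal + 16), which understates changes of dim genes, and the upper 60% by mean over 8 arrays (a signal of about 29.4 or more) were fitted with limma 3.58.1 in R 4.3.3 (lmFit, then eBayes with its trend option; two-sided; Benjamini-Hochberg over 18625 probe sets, threshold 0.05). P-values are from this fit unless an alternative is named, and adjusted p-values are over all probe sets tested. Precision is limited by the 8 arrays: the median SE of a member's log2 fold change was 0.201. Symbols came from the platform annotation, and all 96 members matched RefSeq by Entrez identifier. The steps were also run on simulated data with independent noise, as a check of the code only, and no result here rests on it.

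In each enzyme group the text names members past the threshold, those with an unadjusted p under 0.05 or groups not overlapping, the 2 brightest and the one with the largest change, and of the partner list those with an unadjusted p under 0.05 and the regulators Nr1i2, Nr1i3, Ppara, Nfe2l2 and Hnf4a. Other names were chosen after their values were seen. Alternatives changed the pseudocount (1 or 64), the scaling (quantile or median), the filter (none, or the upper 40%), the trend, the array weights, the choice of probe set (a gene's averaged instead), added a replicate block or the GAPDH 3' to 5' ratio, or left out each array in turn or control arrays 1 and 2.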

Additional observations from a re-analysis of the deposited data

Results flagged for a closer look

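Among 84 sets of 4 arrays (39 named genes and 3 quality measures, for both diets), a single array stood away from its group in 3, and chance alone would give about 4.2. The distance is stated on the log2 scale as the gap between that array and its closest neighbour over the span of all 4. It was 0.853 for Akr7a3, low on control array 2, 0.983 for Cyp2d2, low on control array 1, and 0.875 for the regulator Cebpb, low on quercetin array 2.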

How the results depend on the processing

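Of 39 named genes, 31 kept the sign of their log2 fold change under all the alternatives that gave a value, and 0 passed the adjusted threshold under any. Under the upper 40% filter Cyp2d2, Cyp2f4, Cyp3a18, Fmo1, Cebpb and Nr1i3 gave no value. The cause of the changes that follow was not tested. Signs turned for genes near 0: Cyp4f5 had 0.026 with median centring; Akr1c13 -0.00058, Akr1a1 -0.046 and Cyp3a18 -0.0082 with array weights; Akr1a1 -0.0065 and Cyp3a18 -0.00068 with the GAPDH ratio. With probe sets averaged per gene Fmo2 had -0.0056 and Hnf4a 0.12, and without control arrays 1 and 2 Akr1c13 had -0.063, Akr1a1 -0.038 and Ces1e -0.019. With 1 array left out, values ran from -0.11 to 0.47 for Ces1e, -0.27 to 0.017 for Adh1c, -0.035 to 0.25 for Akr1c13, -0.093 to 0.059 for Akr1a1, -0.20 to 0.21 for Cyp4f5 and -0.13 to 0.10 for Cyp3a18. Values also moved by over 1.5 times with the sign kept, and not all such genes are listed here. Among them were Adh5 (0.14) and Fmo5 (0.039) without quercetin array 1, and Aldh9a1 (0.14) without control array 4. Nr1i2 had 0.044 without quercetin array 4 and Nfe2l2 -0.059 without quercetin array 3. With quantile normalisation Adh1c had -0.0047, and with a pseudocount of 1 Fmo1 had -0.77.

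Of all probe sets, 1 passed with a pseudocount of 1, quantile normalisation, median centring, no filter, no trend or the replicate block, 0 with probe sets averaged or without control arrays 1 and 2, and 1 to 2 with 1 array left out. The count of members at an unadjusted p under 0.05 was 7 without the trend (11.5%, against 9.87% of all probe sets in that setting). It was 3 without control arrays 1 and 2 (5.08% against 7.46%). With 1 array left out it ran from 4 (6.67% against 7.96%) to 18 (29.5% against 10.6%). Of these, 3 were higher without control arrays 1 and 2 and 4 to 17 with 1 array left out. Lower members numbered 0 with median centring, without the trend and without control arrays 1 and 2, and 0 to 1 with 1 array left out. Groups did not overlap in 2 members with quantile normalisation (3.28%, against 6.6% of all probe sets in that setting), 3 with median centring (4.92% against 6.06%), 1 without the filter (1.04% against 5.11%), 3 without control arrays 1 and 2 (5.08% against 17.6%) and 0 to 12 with 1 array left out.

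The replicate numbers share no stated animal, and same-numbered arrays correlated in their deviations by -0.02, 0.16, -0.15 and 0.14, with 2 of 4 arrays closest to their own number. With the replicate block 9 members (14.8%) had an unadjusted p under 0.05, against 11.1% of all probe sets. Without the block there were 11 (18%, against 10.8%).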

Other observations

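The following was noticed in the values and is given as a description. In 11 of the 61 members tested (18%) quercetin arrays 1 and 2 held the highest pair of signals of the 8 arrays, against 7.27% of all genes tested; these were Adh5, Akr7a3, Akr1b8, Akr1c14, Aldh1b1, Cyp2d2, Cyp4f1, Maoa, Cbr1, Ephx2 and Ephx1. Nqo1, the quinone reductase and best known NRF2 target, which is no member, showed the same layout and was named after its values were seen. It had 248, 316, 293 and 311 on control arrays 1 to 4. On quercetin arrays 1 to 4 it had 598, 647, 239.7 and 277. Of the listed NRF2 targets tested, Akr7a3, Akr1b8, Cbr1 and Ephx1 had this layout. Cbr3, Akr7a2, Akr1a1, Akr1b1 and Aldh7a1 did not. The part of NRF2 in this layout was not tested.

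In a fit without the filter, 0 of the 35 dim members had an unadjusted p under 0.05 in limma, and 0 passed after adjustment. Of all probe sets in that fit, dim and bright, 8.63% had an unadjusted p under 0.05. The smallest unadjusted p was that of Aldh3a1, 0.0512. In 1 of the 35 the groups did not overlap, against 5.11% of all probe sets in that fit. This was Akr1d1, a steroid reductase of bile acid synthesis, with signals of 20.4, 16.9, 13.6 and 28.7 on the control arrays and 28.8, 49.8, 28.8 and 33.8 on the quercetin arrays.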
